A study of Mus musculus with 25 samples.

Results

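Melanomas whose size held level under an antibody against CTLA-4 were compared with melanomas of mice given an isotype control antibody of the IgG2b class. The comparison held 6 tumours labelled stable and 5 control tumours, 11 of the 25 tumours sequenced. The 6 stable tumours were among 20 that were sequenced from a group of 30 mice given anti-CTLA-4. The group of each tumour was taken from the sample labels. All 25 tumours grew from B2905, also called M4, a single mouse melanoma line implanted in C57BL/6 mice. Antibodies were given at 10 mg/kg, in 2 doses a week over 2 weeks, from an average tumour size of 75 mm3. A tumour was labelled stable when its size neither grew nor shrank over the 10 to 11 days that followed the last dose. The stable tumours therefore differed from the controls in the antibody given and in having been grouped by outcome, and the parts of these in any difference cannot be told apart. No allele of the mice beyond the strain, and neither their age nor their sex, was given in the sources used here, and mice left untreated were not analysed here. Each library was made from bulk tumour, in which fewer cells of a type and less RNA per cell cannot be told apart.

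CTLA-4 is a receptor of T cells that competes with CD28 for the ligands CD80 and CD86 and so restrains T cell activation, and regulatory T cells carry much of it. Activated T cells and natural killer (NK) cells kill through perforin and granzymes and release interferon gamma, which raises antigen presentation, guanylate-binding proteins and chemokines that draw further T cells. Melanoma cells often keep the pigment programme of the melanocyte, which the transcription factor MITF drives, and can lose it while they survive.

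The label of melanoma was checked against melanocyte genes. Dct, an enzyme of melanin synthesis (chr14:118012790-118052244, minus strand, in GENCODE M21 on GRCm38), was at 7872, 4529, 5519, 6845 and 5867 CPM in controls 1 to 5 and 2.84 to 38.7 (median 14.8) CPM in the stable tumours, where CPM is a gene's scaled counts per 1000000 counts of the library. Sox10, a defining transcription factor of the neural crest lineage, was at 356, 365, 321, 391 and 349 CPM in the controls and 121 to 252 (median 176) CPM in the stable tumours. Dct was thus high in every control and low in every stable tumour, while Sox10 was expressed in all 11 tumours.

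The libraries held 14781802 to 22823795 counts in the stable tumours and 17657023 to 34311333 in the controls. Protein-coding genes took 86.2 ± 1.86% of counts in the stable tumours (SD, n = 6) and 87.4 ± 0.842% in the controls (SD, n = 5), and this difference did not pass a two-sided exact permutation test (p = 0.197, adjusted p = 0.246 over 5 measures of composition). Mitochondrial ribosomal RNA took 1.31 to 7.28% of counts (median 2.13%) in the stable tumours and 0.546 to 0.966% in the controls (exact p = 0.0130, adjusted p = 0.0325). Messenger RNA encoded by the mitochondrial genome went the other way, at 0.373 to 0.789% (median 0.707%) against 0.852 to 1.06% (exact p = 0.00216, the smallest that 462 splits can give, adjusted p = 0.0108). Neither measure overlapped between the groups. Stable 5 had the highest rRNA share, stable 3 the lowest mitochondrial mRNA share, and control 5 was highest of the controls in most immune lists. The labels begin with a number that ran from 1 to 5 in the controls and from 20 to 25 in the stable tumours, and what it stands for was not given in the sources used here.

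**Figure D1:**
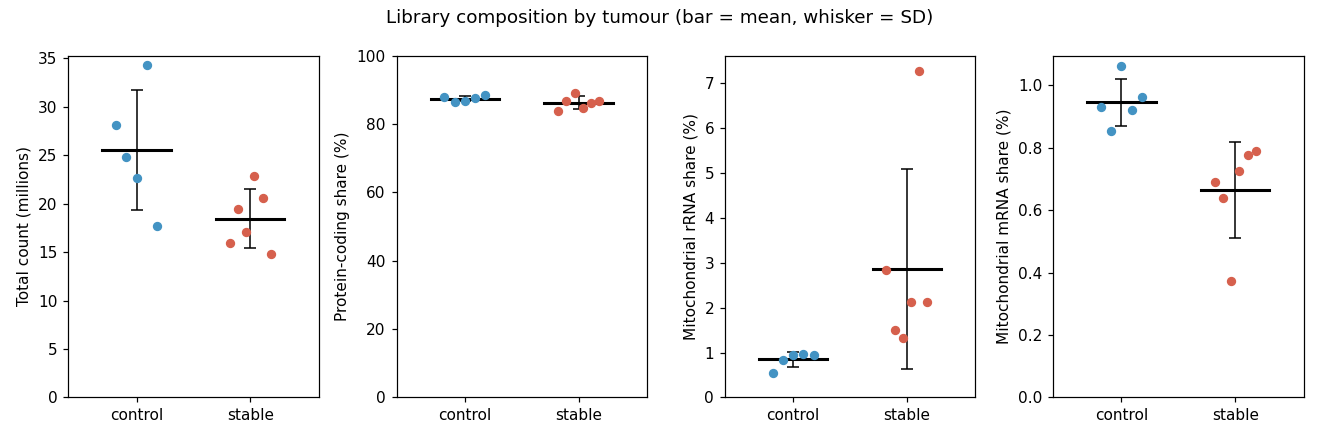
Total count (in units of 1000000 counts) and the shares of counts (%) taken by protein-coding genes, mitochondrial rRNA and mitochondrially encoded mRNA, 1 point per tumour, with the mean as a bar and the SD as a whisker. The mitochondrial rRNA share lies at or above 1.31% in all 6 stable tumours and at or below 0.966% in all 5 controls, and stable 5 stands highest at 7.28%.

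Of 18031 genes tested with edgeR, 7531 were called at an adjusted p under 0.05, which is 41.8%. Of all genes tested, 22.2% were called higher and 19.6% lower in the stable tumours, 14.3% and 7.58% were called at 2-fold or more, and 18.4% and 17.2% did not overlap between the groups. The median log2 fold change over all genes was 0.02. Without stable 3, stable 5 and control 5, 5958 genes were called. The genes below are grouped in 53 lists, and each count is to be read against those shares. In 27 lists the mean level of every stable tumour lay above that of every control, and in 11 it lay below.

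**Figure D2:**
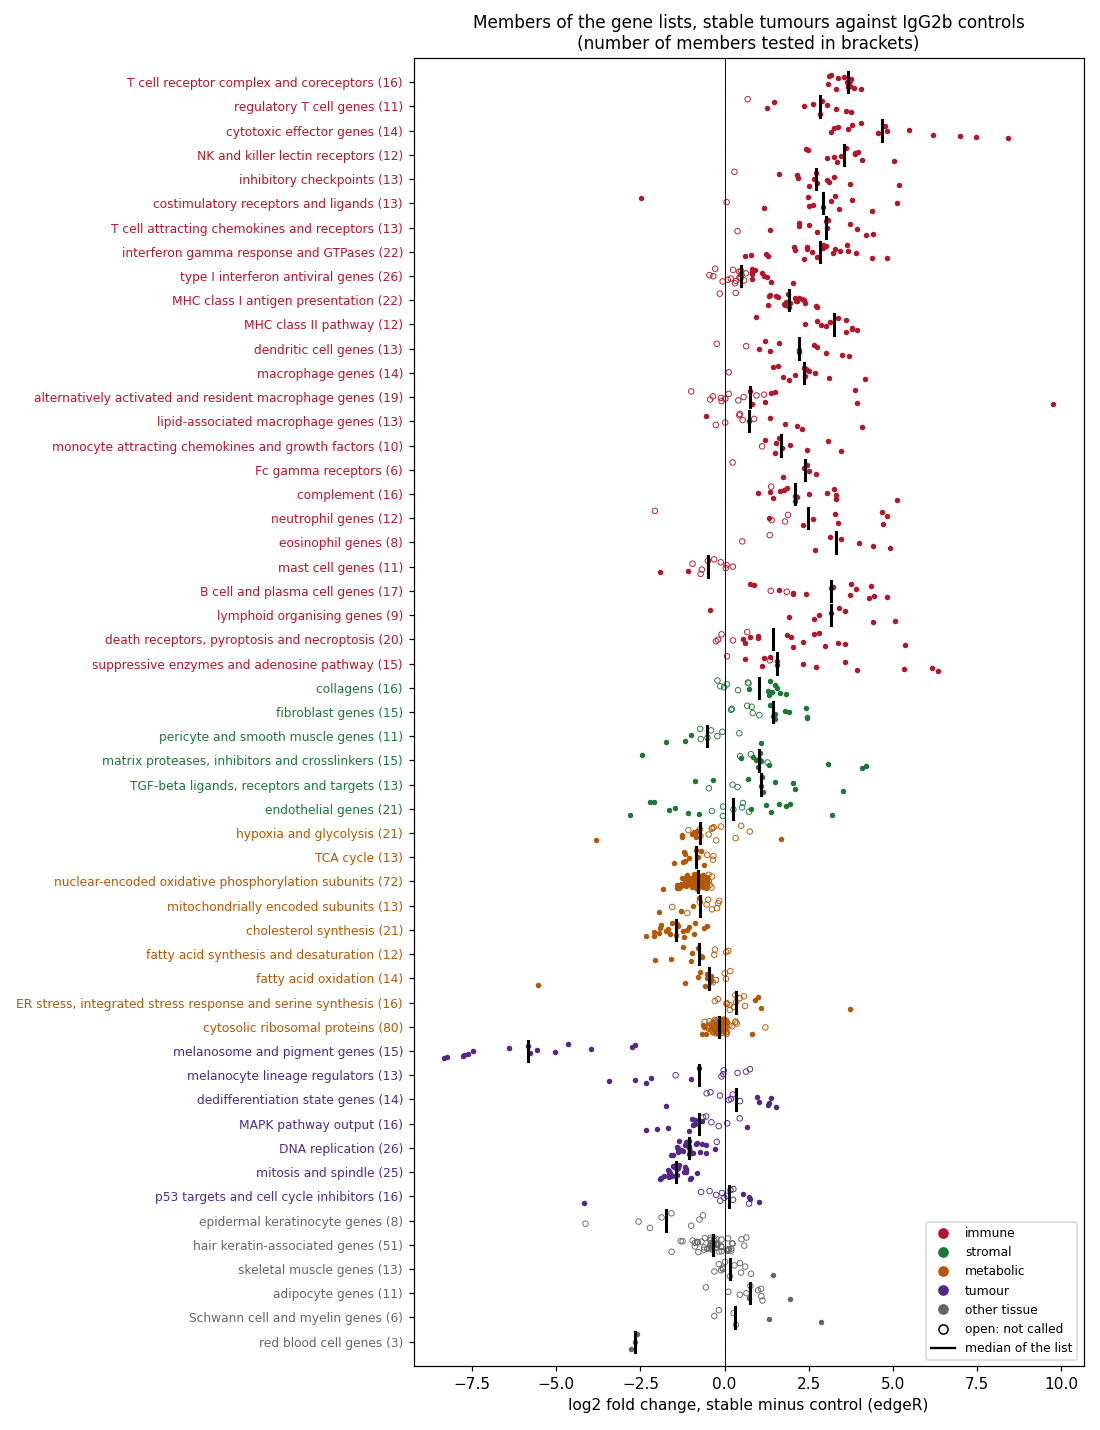
Log2 fold change, stable minus control, of every tested member of the 53 gene lists, 1 point per gene, filled where called and open where not, with the list median as a black bar. T cell, killer cell, interferon gamma and MHC class II lists lie to the right of 0, and pigment, cholesterol, replication and mitosis lists lie to the left, with the pigment list farthest at a median of -5.84.

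**Figure D3:**
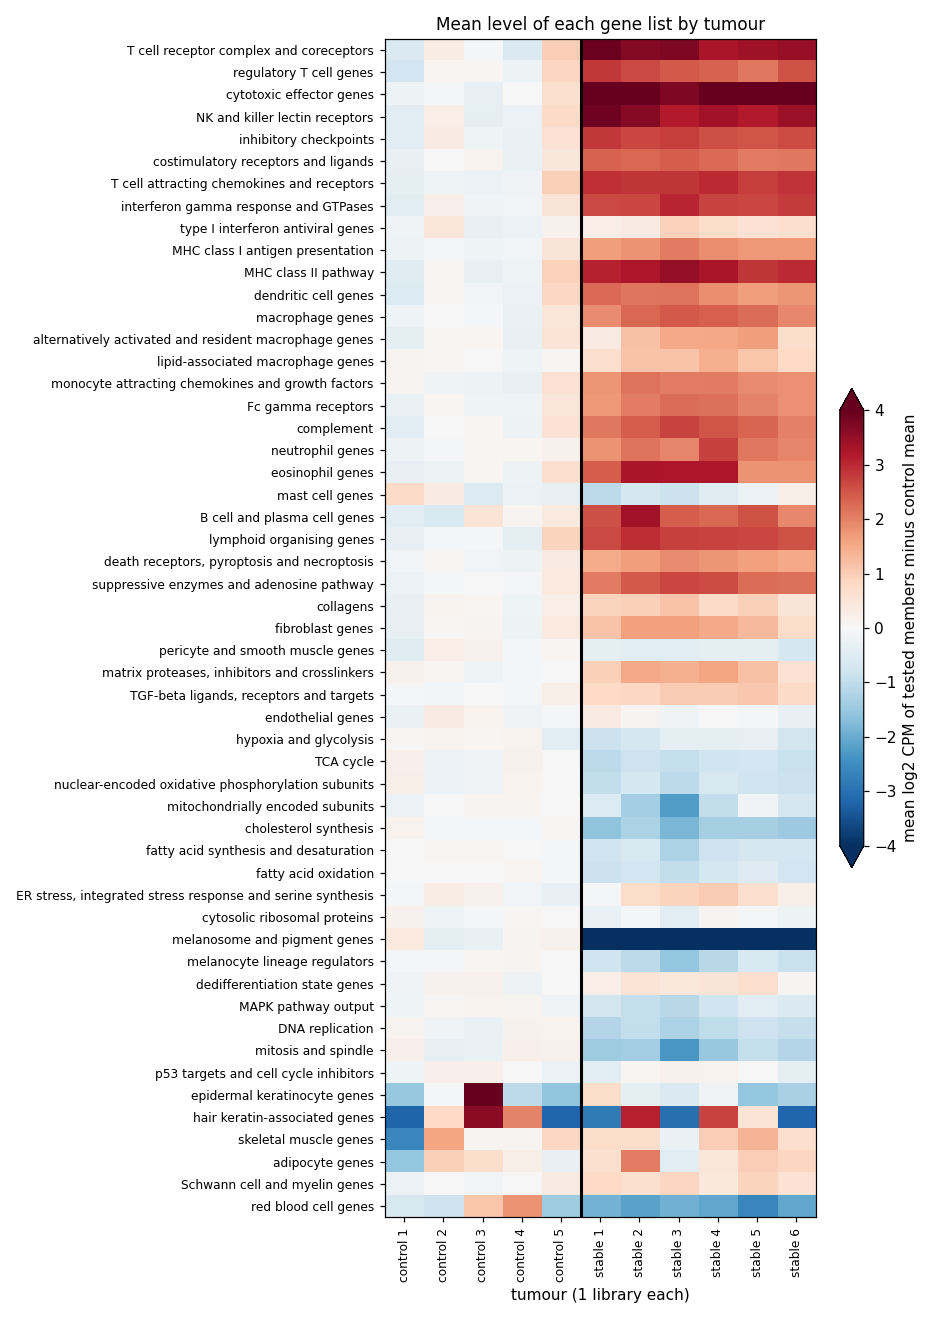
Mean log2 CPM of the tested members of each list in each tumour, minus the mean of the controls (colour, limited to -4 and 4). The 6 stable tumours share the pattern of higher immune and lower pigment and mitosis lists, while keratinocyte, hair keratin, muscle and fat genes vary among tumours of both groups.

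The members of the T cell receptor complex and its coreceptors were higher in the stable tumours in 16 of 16 cases, with a median log2 fold change of 3.67. Cd3e, a signalling chain of the receptor, was at 0.500, 1.99, 1.33, 0.904 and 2.12 CPM in the controls and 7.66 to 22.2 (median 12.8) CPM in the stable tumours (log2 fold change 3.32, SE 0.45, adjusted p = 3.54e-06). Every stable tumour lay above every control for all 16 genes, Cd4, Cd8a and Cd8b1 among them.

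Regulatory T cell genes rose in 10 of 11 cases (median 2.84). Ctla4, the target of the antibody (chr1:60887000-60915832, plus strand), was at 0.967, 1.25, 0.704, 0.877 and 2.74 CPM in the controls and 9.87 to 17.1 (median 12.7) CPM in the stable tumours (log2 fold change 3.33, SE 0.41, adjusted p = 1.48e-06). Foxp3, the transcription factor that defines regulatory T cells, was at 0.267, 1.10, 0.861, 0.794 and 1.81 CPM and 4.96 to 10.5 (median 6.43) CPM (log2 fold change 2.84, SE 0.43, adjusted p = 1.32e-05). Both genes were higher in all 6 stable tumours than in any control, and control 5 was the highest control for both. Il2ra, the high-affinity chain of the interleukin 2 receptor, had the largest fold change of this list (log2 fold change 3.74), and Ccr8, a chemokine receptor of tumour regulatory T cells, had 3.60, or 4.56 without control 5. Il10 was the member not called, at a log2 fold change of 0.69 (adjusted p = 0.285).

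All 14 cytotoxic effector genes rose, with the largest list median among the immune lists, 4.66. Gzmb, the granzyme common to killer T and NK cells, was at 1.37, 1.33, 1.21, 1.53 and 2.74 CPM in the controls and 26.8 to 52.7 (median 38.6) CPM in the stable tumours (log2 fold change 4.56, SE 0.68, adjusted p = 1.24e-05). Gzmc, a granzyme of the same cluster on chromosome 14, was at 1.70, 1.03, 0.509, 2.22 and 1.97 CPM and 29.9 to 159 (median 119) CPM (log2 fold change 6.18, SE 0.87, adjusted p = 6.93e-06). Gzmg had no count in any control and was at 0.883 to 5.35 (median 1.50) CPM in the stable tumours, which is at least 100.2-fold higher when the controls are set to a floor of 3 counts in all. Gzmf and Gzmd were also among the 10 highest fold changes of the whole comparison (7.48 and 7.00, the latter 7.92 without control 4). These granzymes are close copies of each other, so the division of shared reads among them is uncertain. Ifng and Prf1, chosen after their values were seen, rose by log2 fold changes of 4.76 (SE 0.69) and 3.66 (SE 0.56).

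NK and killer lectin receptor genes rose in 12 of 12 cases (median 3.54). Ncr1, an activating receptor of NK cells, was at 0.833, 0.663, 0.313, 0.712 and 1.86 CPM in the controls and 4.91 to 12.2 (median 8.56) CPM in the stable tumours (log2 fold change 3.33, SE 0.52, adjusted p = 1.75e-05). Klrc1, an inhibitory receptor shared by NK cells and killer T cells, was at 0.467, 1.40, 0.704, 0.712 and 0.983 CPM and 19.7 to 38.3 (median 26.8) CPM (log2 fold change 5.04, SE 0.63, adjusted p = 1.83e-06). The groups did not overlap for either gene.

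Among inhibitory checkpoint genes 12 of 13 rose (median 2.73), and Lgals9 was not called. Lag3, an inhibitory receptor that binds MHC class II, was at 0.533, 1.92, 1.14, 0.986 and 1.24 CPM in the controls and 4.57 to 11.1 (median 6.27) CPM in the stable tumours (log2 fold change 2.52, SE 0.40, adjusted p = 2.24e-05). Pdcd1lg2, which encodes the ligand PD-L2, was at 0.667, 0.848, 0.704, 1.29 and 3.10 CPM and 33.4 to 62.5 (median 46.8) CPM (log2 fold change 5.18, SE 0.71, adjusted p = 4.59e-06). Control 5 was the highest control for Pdcd1lg2 and still lay far below the lowest stable tumour. Costimulatory genes rose in 11 of 13 cases (median 2.92), with Icos at a log2 fold change of 4.39 and Tnfrsf9, which encodes 4-1BB, at 3.40. Tnfsf18, the ligand of the receptor GITR and chosen after its values were seen, was the 1 member that fell, from 0.833, 0.737, 1.45, 0.603 and 2.23 CPM in the controls to 0.0557 to 0.471 (median 0.160) CPM (log2 fold change -2.49, SE 0.57, adjusted p = 9.92e-04).

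Chemokines that attract T cells and their receptors rose in 12 of 13 cases (median 3.00), and Cxcl11 was not called. Cxcl9, a chemokine induced by interferon gamma, was at 10.9, 31.4, 25.4, 23.5 and 49.8 CPM in the controls and 481 to 572 (median 510.2) CPM in the stable tumours (log2 fold change 4.20, SE 0.49, adjusted p = 9.83e-07). The stable tumours lay within a narrow band for this gene, and control 5 was the highest control. Cxcr6, a receptor of resident effector T cells, rose by a log2 fold change of 4.41 (SE 0.59).

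Interferon gamma response genes rose in 22 of 22 cases with a median of 2.83, and none overlapped between the groups. Gbp4, a guanylate-binding protein, was at 9.07, 23.7, 20.2, 17.1 and 36.9 CPM in the controls and 394 to 528 (median 422) CPM in the stable tumours (log2 fold change 4.39, SE 0.52, adjusted p = 1.11e-06). Type I interferon antiviral genes moved less: 10 of 26 rose (median 0.50), or 17 in a fit of only the 11 tumours. Isg15, a ubiquitin-like protein that type I interferon induces strongly, was at 8.00, 18.5, 9.08, 11.2 and 13.6 CPM and 11.2 to 19.1 (median 14.4) CPM and was not called (log2 fold change 0.31, SE 0.30, adjusted p = 0.449). The groups overlapped for Isg15, and Ifit1, Ifit3, Rsad2, Irf7 and Usp18 were likewise not called. Zbp1, a sensor of nucleic acids, rose most of this list (log2 fold change 2.02), followed by Stat2 (1.37). No test of the difference between both interferon lists was made.

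The bases before the transcription start of genes in the interferon gamma list are shown because the list moved together and because 2 known motifs recur there. Sequences are from RefSeq on GRCm38.p6, and 15 of the 22 genes had one. The GAS motif of the interferon gamma response was searched as TTCNNNGAA and the ISRE motif of interferon regulatory factors as GAAA and GAAA with any 2 bases between them, on both strands of the 250 bases before each start. GAS was present in 7 of 15 and ISRE in 10 of 15, against 7.18% and 3.04% of 27025 promoters. ISRE was present in 4.60% of the promoters of genes called higher and 1.92% of those called lower, and in 9 of 19 of the type I list. GAS was present in 7.03% and 5.49% of these, neither above the 7.18% of all promoters, and in 3 of 19 of the type I list. Matches are given in capitals, each line ends at the base before the start, and overlapping ISRE matches in Gbp3 share bases.
Irf1 (chr11:53769909-53770013, plus strand): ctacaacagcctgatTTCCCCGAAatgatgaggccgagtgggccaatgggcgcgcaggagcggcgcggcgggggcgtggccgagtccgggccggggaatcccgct
Gbp2 (chr3:142620589-142620662, plus strand): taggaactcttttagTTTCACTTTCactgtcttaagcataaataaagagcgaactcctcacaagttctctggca
Gbp3 (chr3:142559984-142560043, plus strand): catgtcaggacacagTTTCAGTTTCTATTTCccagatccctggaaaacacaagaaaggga
Gbp7 (chr3:142530215-142530335, plus strand): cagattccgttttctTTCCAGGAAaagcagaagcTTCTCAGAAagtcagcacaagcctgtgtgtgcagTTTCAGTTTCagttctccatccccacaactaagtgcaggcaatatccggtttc
Igtp (chr11:58199496-58199555, plus strand): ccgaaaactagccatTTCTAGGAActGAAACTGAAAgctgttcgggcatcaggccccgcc
Irgm2 (chr11:58214887-58214976, plus strand): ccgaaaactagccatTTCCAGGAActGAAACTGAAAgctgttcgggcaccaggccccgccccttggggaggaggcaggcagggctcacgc

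Igtp and Irgm2, which encode interferon-inducible GTPases, carried a GAS and an ISRE match in the same order and 11 bases apart, beginning 45 and 34 bases before the start of Igtp and 75 and 64 before that of Irgm2. The bases around these matches are nearly identical in both genes, so they are not separate cases of the layout. Tgtp1 (GAS at 88, ISRE at 77) and Tgtp2 (81 and 70) held the matches in the same order. Their bases there are nearly identical to each other, and they share the GAS match and the bases just before it with Irgm2. They are therefore not separate cases either. The levels of Igtp and Irgm2 moved alike as well. Igtp rose from 24.0, 49.0, 35.5, 37.7 and 63.1 CPM in the controls to 275 to 380.4 (median 307) CPM (log2 fold change 2.91, SE 0.39, adjusted p = 3.51e-06), and Irgm2 from 30.9, 64.4, 44.2, 46.5 and 64.4 CPM to 210.2 to 330.1 (median 278) CPM (log2 fold change 2.45, SE 0.32, adjusted p = 2.97e-06). Irf1, with a GAS match alone, rose by 2.74 and Gbp2, with an ISRE match alone, by 3.91 on the log2 scale. These genes with printed promoters were chosen after their values were seen, and a match is a description of the letters, not evidence of binding.

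Antigen presentation genes rose in both classes. MHC class I genes rose in 20 of 22 cases (median 1.90), and the chaperones Calr and Pdia3 were not called. H2-K1, a class I heavy chain, was at 591, 664, 596, 577 and 986 CPM in the controls and 2238 to 2893 (median 2508) CPM in the stable tumours (log2 fold change 1.90, SE 0.30, adjusted p = 1.72e-05). All 12 MHC class II genes rose (median 3.25). H2-Aa, a class II alpha chain of antigen-presenting cells, was at 106, 188, 130.3, 152 and 376 CPM and 1862 to 2701 (median 2269) CPM (log2 fold change 3.60, SE 0.50, adjusted p = 4.79e-06). Control 5 was the highest control for both, and no stable tumour reached down to it. Class I genes of the Q and T regions are near-identical copies, so H2-Q6 (log2 fold change 2.73) and H2-T23 (2.70) carry an uncertain division of reads.

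Dendritic cell genes rose in 11 of 13 cases (median 2.20). Clec9a, a receptor of cross-presenting dendritic cells, was at 0.300, 0.626, 0.743, 0.274 and 1.55 CPM in the controls and 4.89 to 9.83 (median 7.76) CPM in the stable tumours (log2 fold change 3.48, SE 0.45, adjusted p = 2.36e-06). Control 5 was the highest control for Clec9a, as for most immune genes named above. Macrophage genes rose in 13 of 14 cases (median 2.37), and Mertk was not called. Lyz2, a lysozyme of myeloid cells, was at 258, 319, 297, 219.5 and 481 CPM and 4437 to 7225 (median 5493) CPM (log2 fold change 4.17, SE 0.61, adjusted p = 9.42e-06). Adgre1, which encodes the macrophage antigen F4/80, rose less (log2 fold change 1.91, SE 0.32), and 13 of the 14 genes did not overlap between the groups.

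The macrophage genes associated with alternative activation or tissue residence were mixed, with 8 of 19 higher (median 0.76), or 4 with no low-count filter and 5 without control 4. Chil3, a chitinase-like secreted protein (chr3:106147554-106167564, minus strand), had the highest fold change of all genes named. It was at 0.267, 1.03, 0.469, 0.849 and 1.14 CPM in the controls and 179 to 1251 (median 505) CPM in the stable tumours (log2 fold change 9.76, SE 2.01, adjusted p = 4.34e-04). The stable tumours varied widely for Chil3, with stable 3 and stable 4 highest and stable 5 lowest. Arg1, which consumes arginine, was at 17.1, 6.41, 12.4, 14.3 and 32.5 CPM and 103 to 434 (median 254) CPM (log2 fold change 3.95, SE 0.98, adjusted p = 0.00238). Mrc1 was called higher at 0.83 (adjusted p = 0.0226) with overlapping groups, and its call was lost without control 2, without control 4 and with no low-count filter. Clec10a, Mgl2, Pf4, Stab1 and Marco of the same list were also called higher. Cd163, Folr2, Lyve1, Timd4 and Retnla, genes of resident or alternatively activated macrophages, were among those not called. Among 13 genes of lipid-associated macrophages 6 rose and 1 fell (median 0.74), with Trem2, a lipid-sensing receptor, at a log2 fold change of 2.29 and Mmp12, an elastase, at 4.07.

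Enzymes that restrain T cells or act in inflamed myeloid cells rose in 13 of 15 cases (median 1.55). Nos2, the inducible nitric oxide synthase, was at 1.27, 2.21, 2.43, 1.56 and 2.02 CPM in the controls and 87.6 to 259 (median 136) CPM in the stable tumours (log2 fold change 6.33, SE 0.83, adjusted p = 2.97e-06). Acod1, which makes itaconate, was at 0.633, 0.884, 1.06, 1.12 and 1.86 CPM and 51.1 to 104 (median 76.6) CPM (log2 fold change 6.16, SE 0.79, adjusted p = 2.54e-06). Each stable tumour lay far above each control for both genes. Ido1, which degrades tryptophan, had 1 count in the control group and 0.235 to 0.836 (median 0.541) CPM in the stable tumours, a ratio of 73.5 (95% exact Poisson interval 13.2 to 2901, counting error only). Its fitted log2 fold change was 5.34, or 6.37 without control 4. Clec4e, a receptor of activated myeloid cells, and Ly6i were also among the 10 highest fold changes (6.18 and 7.45, the latter 8.37 without control 5), as were Clec1b (6.32, or 8.20 without control 4) and Reg1 (7.43).

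**Figure D4:**
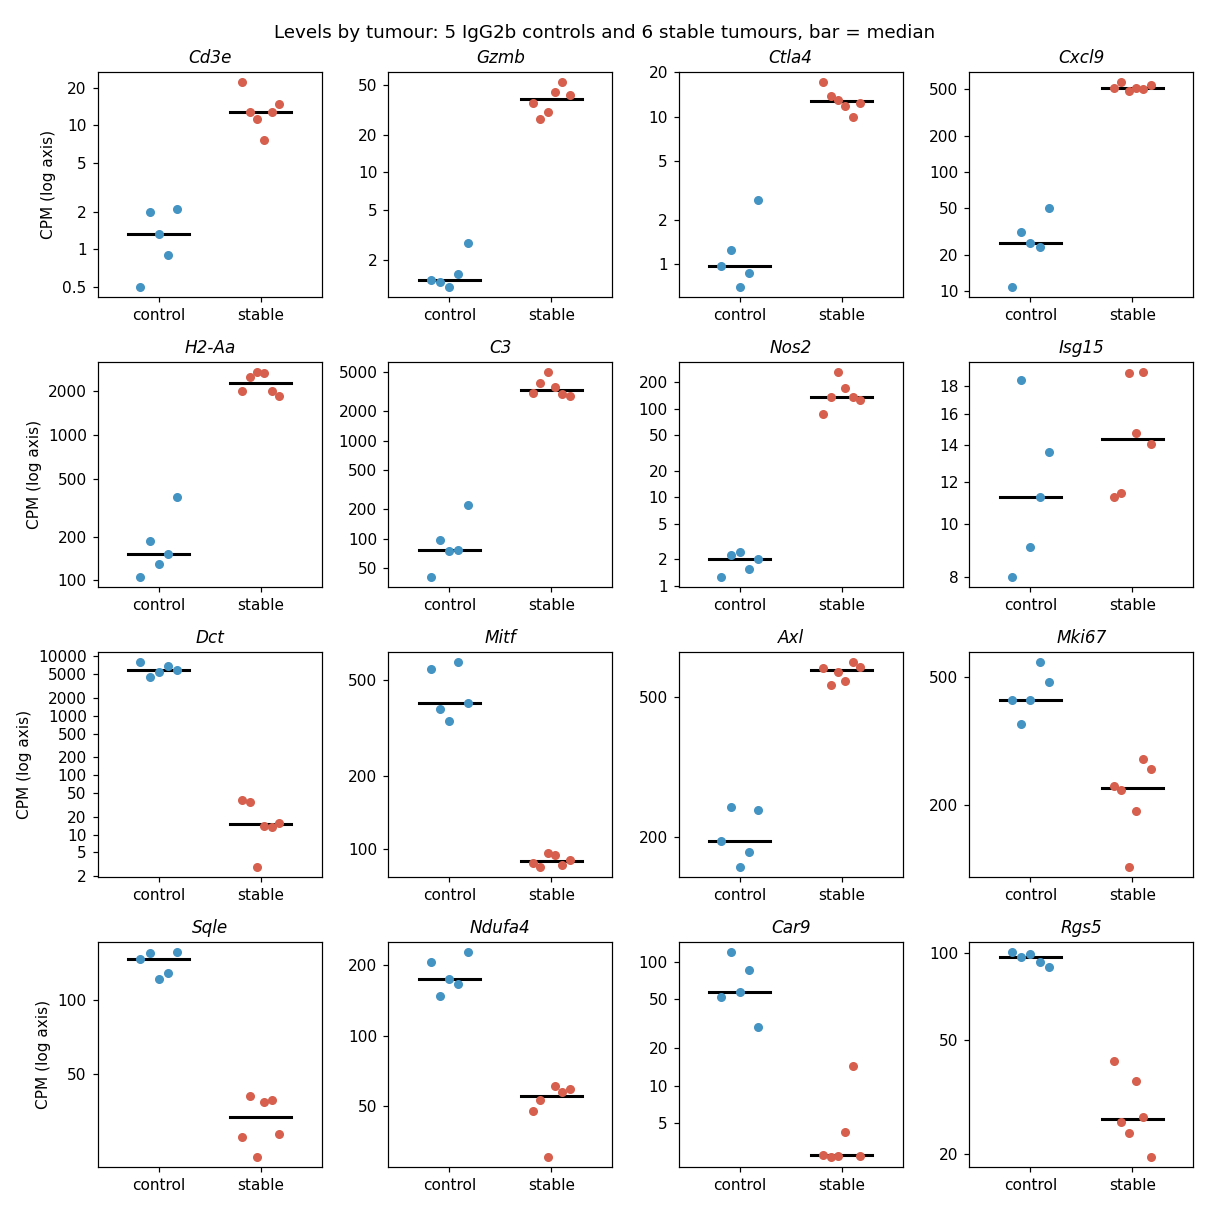
CPM on a log axis of 16 genes, 1 point per tumour and the median as a bar. Immune genes from Cd3e to Nos2 separate the groups completely, Isg15 does not, and Dct separates them by the widest margin, with at least 4529 CPM in each control and at most 38.7 CPM in each stable tumour.

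Complement genes rose in 15 of 16 cases (median 2.09). C3, the component on which the complement pathways converge, was at 40.7, 96.5, 74.5, 76.9 and 222 CPM in the controls and 2884 to 4987 (median 3296) CPM in the stable tumours (log2 fold change 5.13, SE 0.70, adjusted p = 4.36e-06). C1qa, a component that macrophages make, was at 116, 112, 113, 99.8 and 186 CPM and 454 to 659.7 (median 527) CPM (log2 fold change 2.08, SE 0.34, adjusted p = 2.55e-05). The groups did not overlap for either gene, and stable 3 was the highest for both. Monocyte attracting chemokines and growth factors rose in 9 of 10 cases (median 1.67), with Ccl2 at a log2 fold change of 1.49 and Ccl8 at 2.45. Fc gamma receptor genes, whose products bind antibody, rose in 5 of 6 cases (median 2.40), led by Fcgr3 (2.72).

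Granulocyte genes differed by type. Eosinophil genes rose in 6 of 8 cases tested (median 3.30). Ccr3, the eotaxin receptor, was at 0.267, 0.0737, 0.157, 0.192 and 0.310 CPM in the controls and 1.49 to 10.2 (median 6.31) CPM in the stable tumours (log2 fold change 4.93, SE 0.90, adjusted p = 1.03e-04). Stable 5 was the lowest stable tumour for Ccr3 and still above every control. Alox15 rose by 4.40 and Siglecf by 2.68, and Epx, Ear1 and Ear6 were too low to be tested. Neutrophil genes rose in 8 of 12 cases tested (median 2.48), but Ly6g, Camp, Ngp, Elane and Mpo were too low to be tested. S100a9, Cxcr2, Cxcl1 and Cxcl5 were not called, and the lowest log2 fold change of the list was -2.07. S100a8, an alarmin of neutrophils, was called at 2.32 (adjusted p = 0.0401), a call lost without each of stable 2, stable 4, stable 5, control 1, control 2 and control 5 and with no low-count filter. Csf3r, the receptor of granulocyte colony-stimulating factor, was at 2.33, 2.84, 3.21, 2.90 and 4.09 CPM and 22.5 to 48.8 (median 29.8) CPM (log2 fold change 3.37, SE 0.37, adjusted p = 8.21e-07). With the stricter filter, which tested fewer genes, 2 neutrophil and 3 eosinophil genes were called. Mast cell genes did not rise: 2 of 11 were lower, a share near the 19.6% of all genes. These were Gata2 (log2 fold change -1.93) and Cma1 (-1.08), and the latter call was lost without each of stable 1, stable 2, stable 3 and control 1.

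B cell and plasma cell genes rose in 15 of 17 cases (median 3.17). Jchain, which joins secreted antibody, was at 1.000, 1.47, 6.81, 2.03 and 2.23 CPM in the controls and 22.6 to 192 (median 55.7) CPM in the stable tumours (log2 fold change 4.83, SE 0.88, adjusted p = 1.16e-04). Control 3 was the highest control for Jchain and for the light chain gene Igkc, and without it their log2 fold changes were 5.51 and 5.26 in place of 4.83 and 4.43. In limma on log2(RPKM + 1), 5 of these genes were called, and 7 with the stricter count filter. Genes absent from such a fit count as not called. Lymphoid organising genes rose in 8 of 9 cases (median 3.17), or 4 with the stricter count filter, with Lta at 5.07 and the chemokine Ccl19 at 4.40, or 5.17 without control 5, and Ltbr, the receptor of lymphotoxin, fell, a call lost without control 1 and without control 5.

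Genes of death receptors, pyroptosis and necroptosis rose in 15 of 20 cases (median 1.43). Fas, a death receptor, was at 1.53, 1.51, 1.29, 1.37 and 1.29 CPM in the controls and 7.96 to 12.8 (median 12.0) CPM in the stable tumours (log2 fold change 2.97, SE 0.39, adjusted p = 2.76e-06). Il1b, the interleukin released by pyroptotic myeloid cells, was at 1.10, 1.18, 0.743, 0.794 and 1.19 CPM and 29.7 to 65.1 (median 39.1) CPM (log2 fold change 5.36, SE 0.62, adjusted p = 9.93e-07). The groups were far apart for both, while Casp8 and Mlkl, of the apoptosis and necroptosis pathways, were not called.

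Stromal lists differed among themselves. Of 16 collagen genes 9 rose (median 1.01), the fibrillar Col1a1, Col1a2 and Col3a1, the 3 type VI genes, and Col5a2, Col8a1 and Col15a1. Those not called were Col4a1, Col4a2 and Col18a1 of basement membranes and Col5a1, Col11a1, Col12a1 and Col14a1. Col6a1 was at 349.9, 463, 333, 308 and 446 CPM in the controls and 1148 to 1576 (median 1379) CPM in the stable tumours (log2 fold change 1.84, SE 0.22, adjusted p = 1.21e-06). All 6 stable tumours lay well above the controls for Col6a1. Col1a1 was at 514, 1266, 1482, 1051 and 1566 CPM and 1827 to 4505 (median 2937) CPM (log2 fold change 1.33, SE 0.37, adjusted p = 0.00524), and its call was lost with the mitochondrial rRNA share as a covariate. Fibroblast genes rose in 9 of 15 cases (median 1.45). Pdgfra, a growth factor receptor of fibroblasts, was at 40.0, 67.6, 46.5, 42.8 and 77.5 CPM and 122 to 189.6 (median 158) CPM (log2 fold change 1.50, SE 0.30, adjusted p = 2.88e-04), with no overlap. Lum, Fap, Fn1 and Sparc were not called.

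Matrix proteases, their inhibitors and crosslinkers rose in 11 of 15 cases (median 1.01), or 6 with no low-count filter. Mmp13, a collagenase, was at 4.33, 2.10, 1.45, 1.70 and 2.02 CPM in the controls and 11.6 to 78.8 (median 43.3) CPM in the stable tumours (log2 fold change 4.20, SE 0.72, adjusted p = 5.30e-05). Adam12, chosen after its values were seen, fell from 383, 319, 419.7, 452 and 433 CPM to 41.9 to 106 (median 73.4) CPM (log2 fold change -2.44, SE 0.31, adjusted p = 2.25e-06). Neither gene overlapped between the groups, with Mmp13 the more variable among the stable tumours. Of 13 genes of the TGF-beta pathway 8 rose and 2 fell (median 1.08). Tgfb1, the ligand, rose by 1.15 (SE 0.17), and Inhba, a subunit of activin, was at 11.5, 6.78, 8.92, 6.46 and 9.52 CPM in the controls and 43.8 to 152 (median 95.4) CPM in the stable tumours (log2 fold change 3.50, SE 0.50, adjusted p = 7.60e-06).

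Endothelial genes split. Of 21 tested, 7 rose and 7 fell, with a median of 0.26, and 4 and 5 without stable 3, stable 5 and control 5. Those that rose were Icam1, Vcam1, Sele and Selp, adhesion molecules of inflamed endothelium, with Flt1, Vwf and Prox1. The call of Selp was lost without each of stable 1, stable 3, stable 4, control 1, control 3, control 4 and control 5, and that of Vwf without each of these but stable 4. Those that fell were Esm1, Apln and Angpt2, genes of sprouting or remodelling vessels, with Kdr, Cdh5, Emcn and Esam. Icam1 was at 7.17, 11.1, 12.8, 8.44 and 20.9 CPM in the controls and 82.4 to 154 (median 106) CPM in the stable tumours (log2 fold change 3.18, SE 0.39, adjusted p = 1.50e-06). Esm1 was at 29.3, 28.3, 27.0, 23.6 and 18.6 CPM and 0.279 to 8.33 (median 2.21) CPM (log2 fold change -2.81, SE 0.54, adjusted p = 1.81e-04). Every stable tumour lay above the controls for Icam1 and below them for Esm1. Pecam1, a marker of endothelium as a whole, was at 39.4, 57.7, 50.3, 35.6 and 40.2 CPM and 31.5 to 51.0 (median 46.9) CPM, overlapped between the groups and was not called (log2 fold change -0.05, SE 0.20, adjusted p = 0.866). Macrophages and other leukocytes also carry Icam1, and macrophage genes rose in the same tumours; their part in the Icam1 result was not tested.

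Pericyte and smooth muscle genes fell in 3 of 11 cases and rose in 1 (median -0.51), beside 19.6% lower and 22.2% higher of all genes. Rgs5, a pericyte gene, was at 101, 97.1, 99.3, 93.1 and 89.3 CPM in the controls and 19.5 to 42.1 (median 26.4) CPM in the stable tumours (log2 fold change -1.73, SE 0.26, adjusted p = 1.11e-05). Abcc9 and Kcnj8, subunits of a pericyte potassium channel, fell as well, the former by 1.18 on the log2 scale. Pdgfrb, shared by pericytes and fibroblasts, rose by 1.08 (SE 0.20), and Acta2, Tagln and Myh11, contractile genes of smooth muscle, were not called. Red blood cell genes fell in 3 of 3 cases, from a summed level of 24.0 to 226 CPM in the controls to 10.3 to 17.1 CPM in the stable tumours. Hba-a2, a haemoglobin alpha gene, was at 25.1, 21.9, 70.3, 119 and 13.4 CPM in the controls and 4.36 to 10.4 (median 8.63) CPM in the stable tumours (log2 fold change -2.65, SE 0.47, adjusted p = 7.66e-05), or -2.05 without control 4. The controls spread widely and none lay as low as a stable tumour. Its near-identical copy Hba-a1 (log2 fold change -2.79, or -2.15 without control 4) shares reads with it. The limma fits called 1 of the 3 genes, and a gene absent from such a fit counts as not called.

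**Figure D5:**
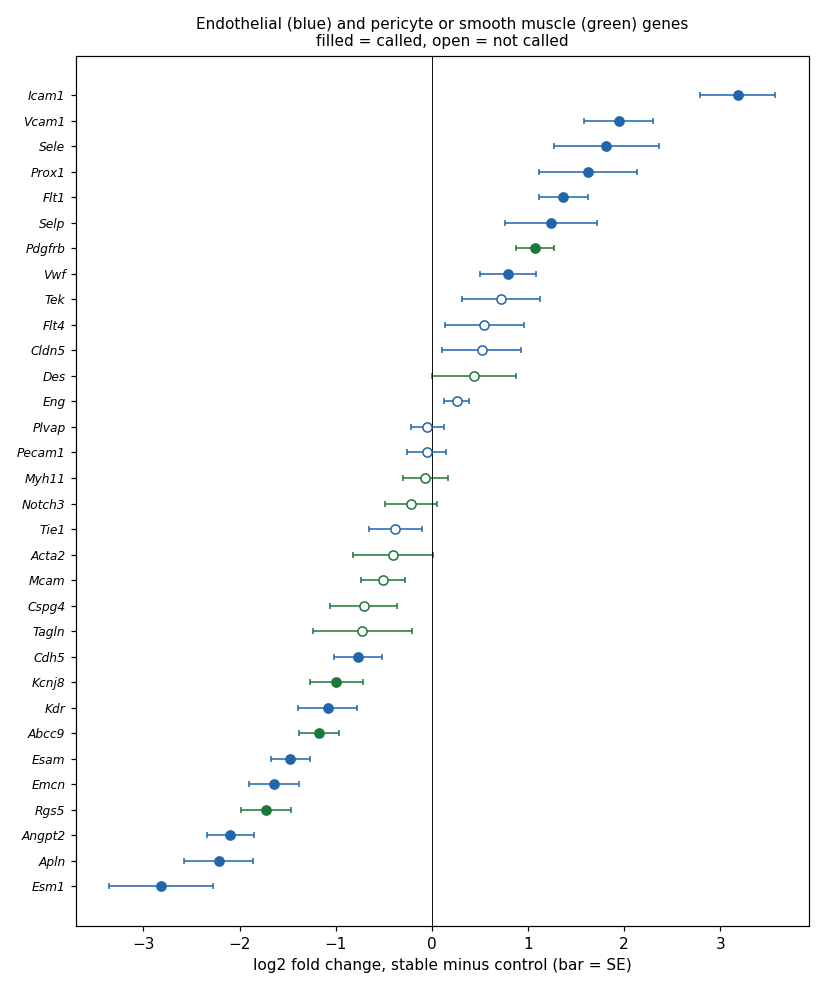
Log2 fold change, stable minus control, with its SE, of 21 endothelial genes (blue) and 11 pericyte or smooth muscle genes (green), filled where called. Adhesion genes such as Icam1 (3.18) lie at the top, Pecam1 (-0.05) near the middle, and Esm1 (-2.81), Apln (-2.22) and Angpt2 (-2.10) at the bottom.

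Metabolic lists differed, from cholesterol synthesis, in which every gene fell, to ribosomal proteins, in which few were called. All 21 genes of cholesterol synthesis fell (median -1.46), and none overlapped between the groups. Sqle, an oxygen-dependent enzyme of the sterol pathway, was at 146, 156, 121, 129 and 156 CPM in the controls and 23.1 to 40.8 (median 33.6) CPM in the stable tumours (log2 fold change -2.10, SE 0.35, adjusted p = 3.58e-05). Idi1, an isomerase of the same pathway, was at 142, 112, 101, 105 and 121 CPM and 16.6 to 33.3 (median 28.8) CPM (log2 fold change -2.09, SE 0.36, adjusted p = 5.78e-05), a gene chosen after its values were seen. Fatty acid synthesis genes fell in 8 of 12 cases (median -0.75). Elovl6, an elongase, was at 65.2, 54.3, 80.8, 57.4 and 56.4 CPM in the controls and 7.08 to 21.2 (median 14.5) CPM in the stable tumours (log2 fold change -2.08, SE 0.48, adjusted p = 0.00117), and Fasn fell by 1.01 on the log2 scale.

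Genes of mitochondrial energy metabolism fell together, in libraries whose mitochondrial rRNA share differed between the groups. Nuclear-encoded subunits of oxidative phosphorylation fell in 65 of 72 cases (median -0.80), and 69 did not overlap between the groups. Ndufa4, a subunit of the respiratory chain, was at 206, 148, 176, 167 and 227 CPM in the controls and 30.3 to 61.2 (median 55.4) CPM in the stable tumours (log2 fold change -1.84, SE 0.30, adjusted p = 2.78e-05). Stable 3 was the lowest, and all 6 stable tumours lay below the controls. With the mitochondrial rRNA share as a covariate, 16 of the 72 were called, and without stable 3, stable 5 and control 5, 42 were. The rRNA share was at or above 1.31% in every stable tumour and at or below 0.966% in every control. The fit takes the effect of this share from differences within the 4 groups of all 25 tumours. Stable and control tumours have no values of the share in common, so their adjusted difference depends on that effect holding across the gap. This was not checked, so the number called does not separate the rRNA share from the group. The part of the rRNA share in the fall of these subunits was not tested. The limit of this covariate holds for every result given with it. Of 13 subunits encoded by the mitochondrial genome 4 fell (median -0.74), beside 19.6% of all genes, or 7 with that covariate. In the limma fits 0 were called, where a subunit absent from the fit counts as not called. mt-Co3, a subunit of cytochrome c oxidase, was at 538, 526.2, 644, 522 and 644 CPM in the controls and 117 to 201 (median 138) CPM in the stable tumours (log2 fold change -1.94, SE 0.33, adjusted p = 5.02e-05).

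Citric acid cycle genes fell in 10 of 13 cases (median -0.85). Idh2, a mitochondrial isocitrate dehydrogenase, was at 270.5, 127, 184, 244 and 200.5 CPM in the controls and 60.1 to 77.8 (median 74.4) CPM in the stable tumours (log2 fold change -1.51, SE 0.24, adjusted p = 2.28e-05). Idh2 was lowest in stable 1. Fatty acid oxidation genes fell in 9 of 14 cases (median -0.46), or 4 with the rRNA covariate. Ppargc1a, the coactivator PGC-1 alpha that promotes mitochondrial biogenesis and is a target of MITF in melanoma, was at 58.0, 41.6, 47.1, 71.8 and 47.2 CPM in the controls and 0.682 to 1.71 (median 1.06) CPM in the stable tumours (log2 fold change -5.56, SE 0.71, adjusted p = 2.51e-06). It was among the most widely separated genes of the metabolic lists, with at least 41.6 CPM in each control and at most 1.71 CPM in each stable tumour.

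Of 21 hypoxia and glycolysis genes 8 fell and 1 rose (median -0.72), or 3 fell with the rRNA covariate and 12 in a fit of only the 11 tumours. Car9, a carbonic anhydrase that hypoxia induces, was at 52.1, 120.0, 57.3, 86.1 and 29.7 CPM in the controls and 2.63 to 14.3 (median 2.72) CPM in the stable tumours (log2 fold change -3.81, SE 0.58, adjusted p = 1.50e-05), or -4.52 without stable 5, the highest stable tumour. The other 5 stable tumours lay close together. Pgk1, Pkm and Ldha, enzymes of glycolysis, fell, Pfkfb3, a regulator of glycolysis in activated cells, rose by 1.67 (SE 0.25), and Slc2a1 and Vegfa were not called. Stress response and serine synthesis genes rose in 4 of 16 cases, a share near the 22.2% of all genes, and in 2 without stable 4 or without control 4. Slc7a11, the cystine transporter, was at 6.03, 10.8, 22.5, 6.96 and 8.74 CPM in the controls and 84.8 to 219 (median 149.5) CPM in the stable tumours (log2 fold change 3.73, SE 0.71, adjusted p = 1.90e-04). Cytosolic ribosomal protein genes were called in 5 of 80 cases (1 higher, 4 lower, median -0.18), below the share of all genes, and in 22 in a fit of only the 11 tumours. Without each of stable 2, control 1, control 4 and control 5, 2 or 3 were called.

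Of the 53 lists, the melanosome and pigment list had the lowest median. All 15 of its genes fell, with a median of -5.84, and none overlapped between the groups. The log2 fold change of Dct was -8.26 with an adjusted p of 4.87e-05. Slc45a2, a transporter of the melanosome, was at 402, 180.1, 298, 415 and 435 CPM in the controls and 0.112 to 2.15 (median 0.938) CPM in the stable tumours (log2 fold change -8.34, SE 1.19, adjusted p = 8.57e-06). Stable 3 was the lowest here and for Dct. Mlana, the melanoma antigen MART-1, was at 241, 123, 176, 183 and 212 CPM and 1.45 to 7.31 (median 2.71) CPM (log2 fold change -5.79, SE 0.86, adjusted p = 1.24e-05). The mean level of the list was lowest in stable 3.

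Other genes among the 10 lowest fold changes were Car14 (-7.79) and Ptgds (-7.74) of the same list, Cfap54 (-8.14), Kcnj13 (-8.55, or -7.81 without control 5), Gulo, Tmem232 and Slc26a4. Tmem232 had no count in any stable tumour and was at 1.90, 0.737, 1.49, 4.38 and 2.90 CPM in the controls, which is at least 87.7-fold lower when the stable tumours are set to a floor of 3 counts in all. Gulo had 1 count over the stable tumours and 1.30, 0.442, 0.548, 7.53 and 56.4 CPM in the controls, a ratio of 1528 (95% exact Poisson interval 274.2 to 60350, counting error only). The fitted log2 fold change of Gulo was -9.78, or -7.36 without control 5 and -11.04 without stable 1. Slc26a4 had 3 counts over the stable tumours, a ratio of 250.9 (85.8 to 1216), and a fitted log2 fold change of -7.66, or -8.65 without stable 1 and -6.75 without control 4.

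The motif bound by MITF in promoters of pigment genes, the M-box, was searched as TCATGTG on both strands of the same windows. It was present in 5 of the 10 pigment genes with a RefSeq promoter, against 3.22% of all 27025 promoters and 2.34% of the genes called lower. The bases before the start of 4 of these genes are shown because the pigment list had the largest median fall, with the M-box in capitals.
Dct (chr14:118052247-118052493, minus strand): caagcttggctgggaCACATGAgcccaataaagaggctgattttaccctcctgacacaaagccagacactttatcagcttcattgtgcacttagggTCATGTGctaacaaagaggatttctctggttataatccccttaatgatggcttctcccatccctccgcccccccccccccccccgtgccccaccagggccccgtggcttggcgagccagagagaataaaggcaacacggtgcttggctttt
Tyrp1 (chr4:80834151-80834212, plus strand): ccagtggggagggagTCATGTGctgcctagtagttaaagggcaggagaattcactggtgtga
Trpm1 (chr7:64153678-64153834, plus strand): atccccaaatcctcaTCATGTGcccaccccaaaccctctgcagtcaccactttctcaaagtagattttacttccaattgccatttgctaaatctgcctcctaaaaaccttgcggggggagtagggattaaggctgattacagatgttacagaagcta
Slc24a5 (chr2:125068099-125068126, plus strand): aggaaggagactgctCACATGAttcagc

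Dct carried the motif at 232 and 151 bases before the start, Trpm1 at 142, Tyrp1 at 47 and Slc24a5 at 13. Tyrp1, which acts beside Dct in melanin synthesis and was chosen after its values were seen, was at 3795, 2466, 2310.0, 2403 and 2168 CPM in the controls and 3.79 to 133 (median 92.5) CPM in the stable tumours (log2 fold change -5.05, SE 0.78, adjusted p = 1.65e-05). Trpm1 fell by 5.84 and Slc24a5 by 3.98 on the log2 scale.

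Regulators of the melanocyte lineage fell in 6 of 13 cases (median -0.75) and by less than the pigment genes. Mitf was at 556, 379.8, 337, 591 and 402 CPM in the controls and 84.2 to 96.3 (median 88.8) CPM in the stable tumours (log2 fold change -2.34, SE 0.30, adjusted p = 2.46e-06). Met, a receptor tyrosine kinase that MITF regulates, was at 1081, 949, 816, 1116 and 1174 CPM and 75.0 to 123 (median 92.0) CPM (log2 fold change -3.42, SE 0.52, adjusted p = 1.32e-05). The stable tumours lay close together and far below the controls for both genes. Sox10, chosen after its values were seen, fell by 1.01 (SE 0.19) and Pax3 by 2.18 (SE 0.30) on the log2 scale, while Tfap2a, Kit, Snai2, Zeb2 and Lef1 were not called. Leukocyte genes rose in the same tumours, and the part of a changed cell mixture in the fall of melanocyte genes was not tested.

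Genes of dedifferentiated melanoma states rose in 6 of 14 cases and fell in 1 (median 0.35). Axl, a receptor tyrosine kinase also made by macrophages and fibroblasts, was at 195, 244, 165, 182 and 238 CPM in the controls and 538 to 625.2 (median 595) CPM in the stable tumours (log2 fold change 1.51, SE 0.22, adjusted p = 7.29e-06). The stable tumours were close to each other for Axl and all above the controls. Ngfr, Nes, Egfr, Twist2 and Aqp1 rose as well, and Wnt5a, Zeb1, Twist1, Cdh1, Cdh2, Jun and Fosl1 were not called. Sox9 was called lower at -1.74, with overlapping groups, and the call was lost without each of stable 1, stable 3, stable 6, control 2 and control 3 and in the limma fits. Transcripts that report MAPK pathway activity fell in 9 of 16 cases and rose in 1 (median -0.77). Dusp6, a phosphatase of ERK, was at 308, 308, 259, 314 and 304 CPM in the controls and 129 to 157 (median 142) CPM in the stable tumours (log2 fold change -1.06, SE 0.19, adjusted p = 6.99e-05). Neither group varied much for Dusp6, and they did not overlap. Phlda1 and Etv1 fell by 2.34 and 2.01 on the log2 scale.

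Proliferation genes were lower almost without exception. All 25 mitosis and spindle genes fell (median -1.43), and 25 of 26 DNA replication genes did (median -1.06), with E2f1 not called. Mki67, a marker of cycling cells, was at 424, 358, 424, 556 and 482 CPM in the controls and 128 to 277 (median 226) CPM in the stable tumours (log2 fold change -1.04, SE 0.23, adjusted p = 7.66e-04). Ccnb1, the mitotic cyclin B1, was at 103, 62.6, 63.0, 93.4 and 90.2 CPM and 9.09 to 28.0 (median 24.4) CPM (log2 fold change -1.91, SE 0.29, adjusted p = 1.44e-05). Mcm2, a subunit of the replicative helicase, was at 136, 117, 93.8, 136 and 137 CPM and 35.6 to 50.9 (median 41.0) CPM (log2 fold change -1.53, SE 0.21, adjusted p = 5.13e-06). No stable tumour reached the lowest control for any of the 3, and stable 3 was the lowest for Ccnb1. Of 16 p53 targets and cell cycle inhibitors 4 rose and 1 fell (median 0.12), or 2 and 1 with no low-count filter. The share that rose was near the 22.2% of all genes. Cdkn1a, the p21 inhibitor, was not called at 0.73 (adjusted p = 0.0606), and Gdf15 fell from 38.7, 66.1, 35.8, 26.2 and 17.5 CPM in the controls to 0.731 to 4.29 (median 1.37) CPM (log2 fold change -4.18, SE 0.76, adjusted p = 1.08e-04).

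Many mitotic genes are known for promoters with CCAAT boxes and a CHR element, which were searched because the whole list fell. CCAAT was searched by those letters and CHR as TTTGAA, on both strands of the same windows. CCAAT was present in 18 of 20 mitosis genes with a RefSeq promoter, against 34.5% of all promoters and 39.0% of genes called lower, and both elements in 7 of 20, against 5.73% and 5.69%. CCAAT was also present in 13 of 14 cholesterol synthesis genes and 10 of 20 DNA replication genes. It was in 14 of 19 MHC class I genes as well, a list that rose, so the box was not particular to lists that fell. The 3 promoters printed are from the 7 that hold both, with matches in capitals.
Mki67 (chr7:135716380-135716582, minus strand): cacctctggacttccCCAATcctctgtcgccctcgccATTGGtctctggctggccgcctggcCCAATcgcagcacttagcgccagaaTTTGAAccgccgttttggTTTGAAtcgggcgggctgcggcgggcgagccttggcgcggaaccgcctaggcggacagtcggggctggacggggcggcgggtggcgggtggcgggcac
Cdc20 (chr4:118437344-118437411, minus strand): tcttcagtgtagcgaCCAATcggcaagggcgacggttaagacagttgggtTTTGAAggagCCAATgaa
Kif11 (chr19:37376322-37376381, plus strand): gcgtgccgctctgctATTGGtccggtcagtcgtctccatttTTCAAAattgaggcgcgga

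Cdc20, an activator of the anaphase-promoting complex, fell by 1.88 (SE 0.25) on the log2 scale and carried CCAAT matches 53 and 8 bases before the start and TTTGAA at 18. Kif11, the spindle motor chosen after its values were seen, fell by 1.16 (SE 0.22) and carried them at 45 and 19.

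Genes of neighbouring tissues were checked as a mark of what else the samples held. Keratinocyte genes were called in 0 of 8 cases and hair keratin-associated genes in 0 of 51, by edgeR. Their summed levels ranged from 12.3 to 89.4 CPM in the stable tumours and 9.99 to 562.3 CPM in the controls for keratinocyte genes, highest in control 3. Hair keratin-associated genes summed to 0.187 to 775 CPM and 0 to 968.6 CPM. Skeletal muscle genes were called in 1 of 13 cases, or 0 without each of control 1, control 3, control 4 and control 5 (summed level 446.8 to 1322 CPM in stable tumours and 78.7 to 1617 CPM in controls) and fat cell genes in 2 of 11, or 1 without each of stable 2, control 1 and control 5 (53.3 to 229.8 CPM and 32.6 to 114.6 CPM). Schwann cell and myelin genes rose in 2 of 6 cases, Mag (log2 fold change 2.88) and Mbp (1.31), beside 22.2% of all genes. The list summed to 315.6 to 493.2 CPM in the stable tumours and 403.6 to 482.3 CPM in the controls. The part of these tissues in the results above was not tested.

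To show where the stable tumours also differed from tumours that grew under the same antibody, they were set beside the 6 non-responders, a comparison that shares the stable tumours with the one above. In that fit 7.08% of genes were called higher and 7.86% lower in the stable tumours. All 15 pigment genes and all 25 mitosis genes were lower there too, as were 20 of 26 replication genes, 15 of 21 cholesterol genes and 8 of 21 endothelial genes. Dct was at 1921 ± 2537 CPM in the non-responders (SD, n = 6) and 20.0 ± 13.9 CPM in the stable tumours (SD, n = 6; log2 fold change -6.59, adjusted p = 0.00357 in edgeR). The non-responders thus varied widely for Dct, with an SD above their mean. Rgs5 was lower by 1.56 (adjusted p = 0.00117) and Esm1 by 2.47 (adjusted p = 0.00455) on the log2 scale. Among immune lists 5 of 16 T cell receptor genes, 1 of 14 cytotoxic genes, 0 of 12 NK genes, 8 of 22 interferon gamma genes and 7 of 12 MHC class II genes were called higher. Ctla4 was higher by 1.34 (adjusted p = 0.0127) and C3 by 1.91 (adjusted p = 0.0252), while Gzmb did not pass (0.76, adjusted p = 0.365). Of nuclear-encoded oxidative phosphorylation genes 4 of 72 were lower.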

How the data were processed

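Gene expression was measured by RNA sequencing of 25 bulk mouse melanomas, of which 6 stable and 5 control tumours are compared here. Per the submitters' processing notes, bcl2fastq 2.17, Trimmomatic, STAR 2.5.1 and RSEM 1.2.22 were used with genome build mm10. The authors deposited RSEM expected counts, estimated counts per gene, for 55450 genes whose identifiers all match GENCODE M21, and a second deposited table of RPKM values (reads per kilobase and per 1000000 reads), of which 19518 symbols served an alternative only. The labels give polyA RNA as the molecule and a stranded total RNA kit as the protocol, and which was used was not settled. Of the expected counts 5.64% were not whole, where whole counts had been assumed in planning, so they were rounded to whole numbers.

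Genes passing edgeR's low-count filter (18031) were scaled by TMM and fitted with edgeR 4.0.16 in R 4.3.3, as 4 group means over all 25 tumours, and stable minus control was tested with the robust quasi-likelihood F test. P-values were adjusted by Benjamini-Hochberg over all genes tested and called under 0.05. CPM are scaled counts per 1000000 counts, and the 25 libraries held 8764595 to 34311333 counts. P-values measure the spread between tumours, each given its own number in the labels. Tumours of each group differed by more than sampling noise, so none was counted as a duplicate. On simulated counts for 17819 genes, of which 200 were changed, the fit called 85% of 4-fold and 54% of 2-fold changes, with 6.71% false among the calls. Far fewer genes were changed there than were called in the data, so these shares need not hold for this comparison. Floors of 3 counts and 95% exact intervals cover counting error only.

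The members and gene lists were chosen with earlier results of these data known, and no p-value is given for a list. Genes were named by a rule: the 10 highest and 10 lowest fold changes at 1 CPM or more, the first gene and the 2 called genes of largest change of each list, and Ctla4 and Foxp3; fewer are printed, and some of these genes, 1 of the 10 lowest among them, are not reported here. Genes outside the rule, including those given only as called or not called, were chosen after their values were seen. The 13 alternatives were DESeq2 1.42.0, edgeR with RLE scaling, testing without the low-count filter or with a stricter filter, only the 11 tumours, a 2-fold minimum, limma 3.58.1 on log2(RPKM + 1) with and without a filter and on log2(RPKM + 0.1), protein-coding genes only, a mitochondrial rRNA or a protein-coding covariate, and thinning to the smallest library. Each of the 11 tumours was also left out in turn, and leaving out stable 3, stable 5 and control 5 together was added after seeing the data.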

Additional observations from a re-analysis of the deposited data

Results flagged for a closer look

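A sample was marked where its gap to the nearest of its group exceeded the 95% critical value of Dixon's test. This was applied 316 times and marked 29 values, where chance alone marks about 1 in 20 groups. None of these values is explained here.

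Stable 3 stood apart in 7 values: mitochondrial mRNA share 0.373%, Gzmc 29.9 CPM, H2-Q6 394.5 CPM, Ndufa4 30.3 CPM, Ccnb1 9.09 CPM, Cdc20 6.58 CPM and Acta1 79.2 CPM were the extremes of the stable tumours. H2-Q6 was high there and the others low. Stable 5 was highest in the mitochondrial rRNA share (7.28%) and in Car9 (14.3 CPM). Stable 1 was the extreme for Gulo (0.0589 CPM), Lag3 (11.1 CPM), Ccl2 (14.5 CPM), Idh2 (60.15 CPM) and Atp5a1 (367 CPM). Gzmf was at 15.8 CPM in stable 4, and Lipe at 27.3 CPM in stable 2.

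Control 5 was the highest control for Ccr8 (0.673 CPM), Gzmb (2.74 CPM), H2-K1 (986 CPM), Ctss (247 CPM), C1qa (186 CPM) and Alox15 (1.60 CPM), all immune genes that were higher still in the stable tumours. Control 3 was the extreme for Retnlg (0 CPM) and Dusp6 (259 CPM). Control 4 was the extreme for Ido1 (0.0274 CPM) and Etv1 (194 CPM), control 1 for Tgfb1 (16.7 CPM) and Fasn (312 CPM), and control 2 for Cfap54 (49.1 CPM).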

How the results depend on the processing

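No paired analysis was possible because the replicate numbers follow accession order and tie no tumour of one group to a tumour of the other. Between 6312 and 8724 genes were called under the alternatives other than the 2-fold minimum, against 7531, and 6657 to 7304 with 1 tumour left out. The 2-fold minimum left 3945 genes, 2579 higher and 1366 lower. The split was 2794 higher and 3693 lower in limma on log2(RPKM + 1), against 3994 and 3537, and with no low-count filter the median of all genes moved by -0.14. With the mitochondrial rRNA share as a covariate, Cpa3 (0.37), Pecam1 (0.20) and Acta1 (-0.006), none of which was called, changed sign, as did Rpl10 (-0.085 with no low-count filter and -0.0015 in the limma fits); the cause was not tested. With 1 tumour left out, Pecam1 ranged from -0.13 to 0.055, Rpl10 from -0.020 to 0.13 and Acta1 from -0.13 to 0.67. The protein-coding share differed by -1.83 to -0.749 percentage points, passing the exact permutation test unadjusted without stable 3 (p = 0.0317). The mitochondrial rRNA share differed by 1.14 to 2.33 percentage points and missed that exact test without control 1 (p = 0.0714) and without control 2 (p = 0.0571). Of the 159 named genes, 16 lost their call and 2 gained one in at least 1 alternative, leaving out 1 tumour included. Low counts limit the neutrophil, eosinophil, B cell and lymphoid organising genes, of which fewer were called under the stricter filter.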
